A study of Mus musculus with 6 samples.

Results

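The genes of antigen processing and presentation were compared between p53 null mammary epithelial cells (MECs) of mice transiently exposed to tamoxifen and of sham treated mice. The list has 35 genes, named for their part in the pathway and not for how they moved, and a gene was measured where the array has a probeset annotated to that gene alone. By this rule 25 of the 35 genes were measured, out of 17418 genes on the array, 13 of them serving class I, 7 serving class II and 5 serving both or giving co-stimulation. Of the other 10, H2-Ob has no entry in the annotation used here, and 9 lie only on probesets shared with other genes, namely H2-K1, H2-D1, H2-T23, Cd1d1, Psme2, Nlrc5, H2-Eb1, H2-DMb1 and Ciita. The classical class I heavy chains and the master regulators of both classes are therefore not analysed here.

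The control group was 3 pools of MECs from mice with a sham pellet, and the tamoxifen group was 3 pools from mice whose 5 mg tamoxifen pellet was left for 13 weeks and removed 4 weeks before collection. The cells of both groups were p53-null Balb/c outgrowths, grown from duct fragments of 8-week-old donors in the cleared fat pads of p53 wild-type Balb/c hosts, and every mouse had received 100 ug of 17-beta-estradiol (E2) 8 h before collection. The hosts were 16 weeks old at pellet implantation by the methods and 8 weeks by the labels, and a pool held 5 mice by the series design and 3 to 5 by the labels. Tamoxifen is a selective estrogen receptor modulator that blocks estrogen action in the breast. The comparison is thus between E2 treated cells with and without past tamoxifen. The MECs were released by collagenase and washed, with lymph nodes removed and no cell sort described, so immune and vessel cells of the wild-type host could be among them.

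Class I molecules display peptides from inside the cell to CD8 T cells and are made by nearly all cells. Their peptides are cut by the proteasome, carried into the endoplasmic reticulum by the TAP transporter and loaded with the help of tapasin and chaperones. Class II molecules display peptides of taken-up proteins to CD4 T cells and are made mainly by dendritic cells, B cells and macrophages, although epithelial cells can make them under interferon gamma. The class II chains are held by the invariant chain Cd74 until H2-DM exchanges its fragment for a peptide.

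Several genes of both classes, among them H2-Aa, H2-Ab1, Tap1 and Psmb9, lie close together in the major histocompatibility complex, whereas others such as B2m lie elsewhere. Some of their promoters share short elements. The following promoter windows, from 250 bases before to 50 bases after the start of the gene, are those of RefSeq for GRCm38.p6 and show the element layout of a class II chain, an inhibitor of class II loading, the TAP transporter and the class I light chain. Capitals mark matches to ATTGG or its reverse complement (the core of the Y box, bound by NF-Y), TGACGTCA (an X2 box, bound by CREB family factors) and GAAA, any 2 bases and GAAA (an interferon response element), searched on both strands. The window of H2-Aa is chr17:34287774-34288073 on the minus strand.
H2-Aa: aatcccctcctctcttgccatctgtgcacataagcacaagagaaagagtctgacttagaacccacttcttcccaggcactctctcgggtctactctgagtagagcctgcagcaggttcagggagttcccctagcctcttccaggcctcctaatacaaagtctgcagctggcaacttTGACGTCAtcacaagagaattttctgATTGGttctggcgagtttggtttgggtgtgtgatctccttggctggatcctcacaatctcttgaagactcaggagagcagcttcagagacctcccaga
H2-Oa (chr17:34092129-34092428, plus strand): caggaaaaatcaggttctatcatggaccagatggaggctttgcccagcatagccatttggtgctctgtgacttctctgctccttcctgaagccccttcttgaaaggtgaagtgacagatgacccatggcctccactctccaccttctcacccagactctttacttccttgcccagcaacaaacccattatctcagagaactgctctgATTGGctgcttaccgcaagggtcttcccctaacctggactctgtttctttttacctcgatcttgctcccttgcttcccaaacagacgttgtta
Tap1 (chr17:34187306-34187605, plus strand): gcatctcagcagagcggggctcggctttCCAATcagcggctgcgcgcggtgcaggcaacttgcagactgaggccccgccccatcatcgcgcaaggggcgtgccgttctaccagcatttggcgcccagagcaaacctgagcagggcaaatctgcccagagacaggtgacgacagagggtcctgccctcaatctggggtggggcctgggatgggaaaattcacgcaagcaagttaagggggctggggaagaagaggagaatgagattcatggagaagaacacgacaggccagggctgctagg
B2m (chr2:122147437-122147736, plus strand): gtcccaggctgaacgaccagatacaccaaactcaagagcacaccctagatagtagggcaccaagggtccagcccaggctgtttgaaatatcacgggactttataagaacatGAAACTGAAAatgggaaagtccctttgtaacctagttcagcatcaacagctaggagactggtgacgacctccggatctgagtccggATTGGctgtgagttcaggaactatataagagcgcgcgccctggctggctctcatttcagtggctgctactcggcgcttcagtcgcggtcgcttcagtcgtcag

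In H2-Aa the X2 box started 74 bases and the Y box core 48 bases before the start of the gene, with 18 bases between them. A window was found for 19 of the 25 measured members, and H2-Ab1, Cd74, Tap2, Rfxap, Cd86 and Cd40 had none. The Y box core was found in 3 of 5 class II members with a window and in 8 of 12 class I members, beside 37.4% of all 32851 promoter windows. The X2 box was found in H2-Aa alone, beside 1.79% of all windows. The interferon element was found in B2m, Erap1, Psme1 and Ctss (3.44% of all windows). The matches overlap each other in none of the windows shown, and a match is a string of letters, not a bound site. Tap1 and Psmb9 are read in opposite directions from starts 226 bases apart, and their windows share 275 bases. The Y box core counted for Tap1 and for Psmb9 is the same site. The neighbours Psmb9, Tap1, Psmb8 and Tap2 follow each other in this order on chromosome 17 with no other protein-coding gene between them.

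The deposited table gives a linear intensity for 22369 probesets on every array, with array means of 395.1 to 403.4 and medians of 129.5 to 136.3. The log2 values were tested probeset by probeset with limma, a linear model that borrows variance across the array, and all p-values called adjusted are Benjamini-Hochberg values over the 22369 probesets. Correlations between the log2 values of the arrays were 0.983 to 0.994. The tamoxifen 2 pool stood apart in white blood cell markers. The summed intensity of 6 pan-leukocyte markers, Ptprc among them, was 13724 in tamoxifen 2, against 6764 and 5617 in the other tamoxifen pools and 6911 to 7751 in the controls. Luminal markers were bright in every pool, with a summed intensity of 6 markers of 30845 to 31545 in controls and 28748 to 30344 after tamoxifen. The sum of every tamoxifen pool was thus below that of every control. In 3 of the 6 markers all tamoxifen pools lay below all controls, against 11.2% of all probesets, and 0 of the 6 passed the adjusted threshold. Other cell markers differed between pools as well. The summed intensity of 7 basal markers was 18960 in control 1 and 15376 to 16470 in the other 5 pools. Control 1 was the highest control in 6 of the 7, against 41.7% of all probesets. All tamoxifen pools lay below all controls in 2 of the 7 and above them in 1, against 11.2% and 9.79% of all probesets. Elf5, a luminal progenitor factor, had a log2 fold change of -0.70 (SE 0.20, adjusted p of 0.258 by limma) with no overlap between groups. This was the lowest value among the 6 luminal markers, whose median was -0.09. The others ran from -0.12 in Epcam to 0.07 in Foxa1. In 5 of 5 endothelial markers all tamoxifen pools lay above all controls, against 9.79% of all probesets, with sums of 10301 to 12061 in controls and 12835 to 13074 after tamoxifen, and 0 of the 5 passed the adjusted threshold. The Trp53 gene has no probeset of its own here. Precision is limited by the 6 arrays, since for a single gene the smallest exact permutation p of 3 pools against 3 is 0.1.

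After transient exposure to tamoxifen, none of the 25 measured genes of antigen presentation passed the adjusted threshold. By limma 0 rose and 0 fell at an adjusted p under 0.05, where 0.389% of all probesets were called (0.282% rose and 0.107% fell), and 0 members were called by the methods' t-test. At an unadjusted p under 0.05, 1 member was lower and 0 were higher, against 5.87% and 6.55% of all probesets, so the members were called no more often than the array as a whole. The 1 member was Tap2. With 1 array left out, 5 members were lower at an unadjusted p under 0.05 without control 3, against 5.61% of all probesets in that fit. The number was 2 without control 2 (4.55% of all probesets) and 2 without tamoxifen 2 (5.1%), while 1 was higher without tamoxifen 3 (4.82%). The median log2 fold change was -0.12 over the class I members and -0.08 over the class II members, against -0.02 over all probesets. Without control 3 the class I median was -0.28. All 13 class I and all 7 class II members were below 0, where 55.2% of all probesets were, but members of a class move together from pool to pool and are not independent. In bulk samples of this kind, fewer cells of a type and less RNA per cell cannot be told apart.

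**Figure D1:**
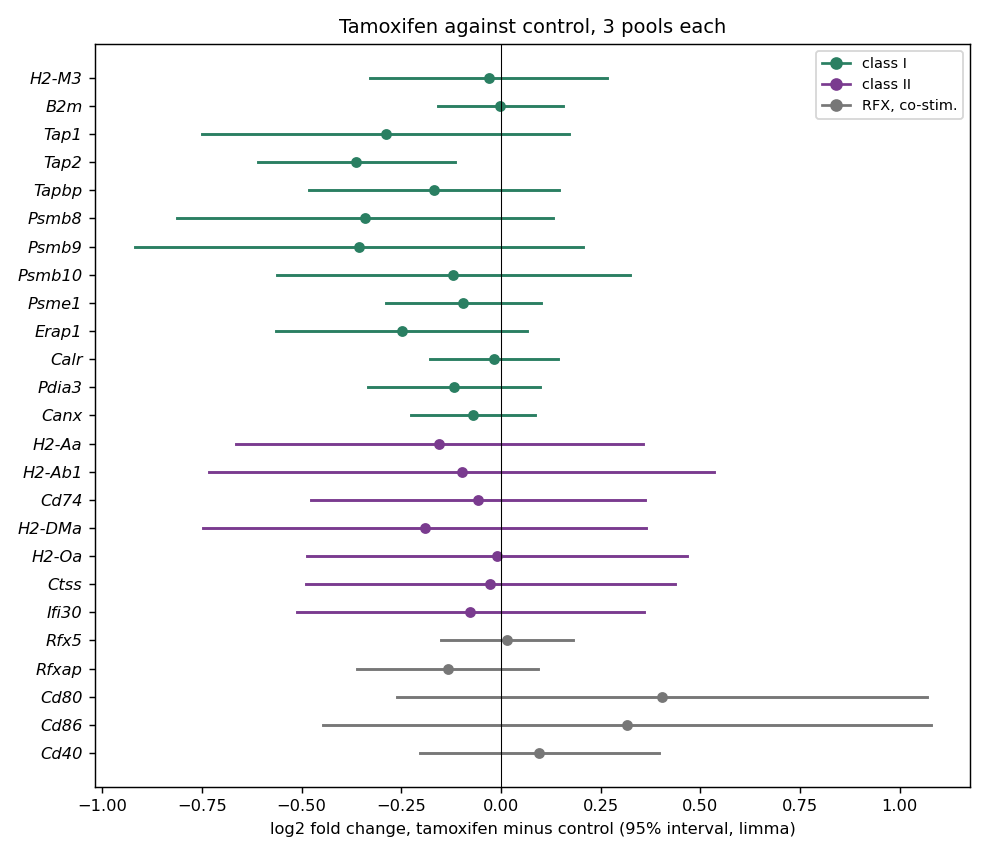
The log2 fold change of each measured member (tamoxifen minus control, points) is plotted with its 95% interval from limma (lines), for 3 pools a group, with class I in green, class II in purple and the other members in grey. Only the interval of Tap2 (-0.61 to -0.12) lies wholly on one side of 0.

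Of the genes that bring peptides to class I, Tap1, Tap2, Psmb8 and Psmb9 had the largest negative values. The intensity of Tap2, which encodes a subunit of the transporter, was 750, 668 and 599 in control pools 1, 2 and 3 and 552, 519 and 493 in the tamoxifen pools. The groups did not overlap, with every tamoxifen pool below every control. The mean was 672 ± 75.6 (SD, n = 3) in controls and 521 ± 29.5 (SD, n = 3) after tamoxifen, and the log2 fold change was -0.36 (SE 0.10, adjusted p of 0.255 by limma). All tamoxifen pools lay below all controls in 11.2% of all probesets, and among the members in Tap2 and Canx (2 of 25).

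Tap1, the partner of Tap2 in the transporter, had intensities of 1574, 1303 and 944 in controls and 1075, 1072 and 920 after tamoxifen. Psmb9, a catalytic subunit of the immunoproteasome that shares its promoter window with Tap1, had 902, 620 and 484 in controls and 567, 519 and 438 after tamoxifen. Psmb8, another catalytic subunit, had 1999, 1638 and 1212 in controls and 1333, 1356 and 1081 after tamoxifen. In each of these 3 genes control 1 was highest, control 2 next, and control 3 lay below at least 1 tamoxifen pool, so the groups overlapped. Their log2 fold changes were -0.29 (SE 0.19) in Tap1, -0.36 (SE 0.23) in Psmb9 and -0.34 (SE 0.20) in Psmb8, with adjusted p-values of 0.614, 0.609 and 0.548 from limma. The interval of Psmb9 ran from 0.529-fold to 1.15-fold of control.

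The third inducible subunit, Psmb10, had 1161, 862 and 698 in controls and 838, 851 and 764 after tamoxifen (log2 fold change -0.12, SE 0.18). Erap1, the aminopeptidase that trims peptides in the endoplasmic reticulum, had 671, 538 and 481 against 465, 493 and 451 (log2 fold change -0.25 with an SE of 0.13, adjusted p of 0.514 by limma). Tapbp, which encodes tapasin, had 3144, 2588 and 2241 against 2392, 2399 and 2242 (log2 fold change -0.17, SE 0.13). The spread of these genes was wider among controls than after tamoxifen. The SD of log2 intensity was 0.37 and 0.08 in Psmb10, 0.24 and 0.07 in Erap1 and 0.25 and 0.06 in Tapbp. In the same order, control 1 lay 0.58, 0.40 and 0.38 above the mean of controls 2 and 3 on the log2 scale. The spread of Pdia3 went the other way, with an SD of 0.05 and 0.13. Psme1, a subunit of the proteasome activator PA28, had 1820, 1719 and 1554 against 1583, 1608 and 1570 (log2 fold change -0.09, SE 0.08). The 8 genes of peptide supply, from TAP to the activator, had a median log2 fold change of -0.27, and control 1 was the highest of all 6 pools in each of the 8, against 26.1% of all probesets. The summed intensity of the basal markers was highest in control 1 as well, which was the highest of the 6 pools in 5 of the 7. Myh11 and Oxtr were instead highest in a tamoxifen pool. The part of basal cells in these values was not tested.

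The 2 class I chains measured, B2m and H2-M3, were close to control, and the chaperones had log2 fold changes of -0.12 to -0.02. B2m, the light chain of every class I molecule, had 13616, 13266 and 13099 in controls and 12867, 13806 and 13287 after tamoxifen. The groups overlapped, and the log2 fold change was -0.0011 with an interval of -0.16 to 0.16, the narrowest among the chains measured. H2-M3, a nonclassical heavy chain that presents formylated peptides, had 421, 389 and 332 in controls and 387, 403 and 328 after tamoxifen (log2 fold change -0.03 with an SE of 0.12, adjusted p of 0.948 by limma).
Of the chaperones that fold heavy chains, calnexin (Canx) had 5273, 5064 and 4999 in controls and 4824, 4995 and 4790 after tamoxifen. Its groups did not overlap, but control 3 and tamoxifen 2 nearly touched, and the log2 fold change was -0.07 with an SE of 0.06 (adjusted p of 0.74 by limma). Calreticulin (Calr) had a log2 fold change of -0.02 (SE 0.07) and Pdia3, the oxidoreductase of the loading complex, -0.12 (SE 0.09), and the groups overlapped in both.

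**Figure D2:**
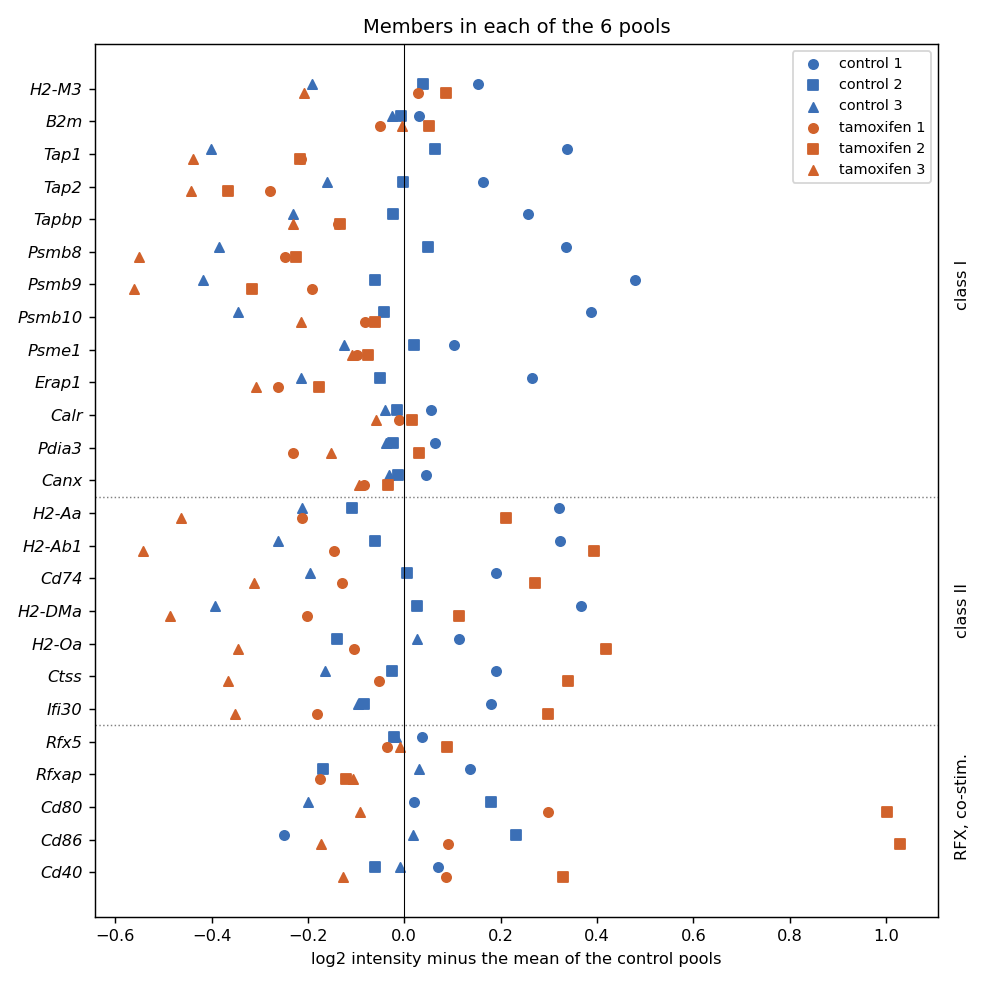
Each row is 1 measured member and each symbol 1 pool (blue controls, orange tamoxifen), placed at its log2 intensity minus the mean of the control pools for that gene. The peptide supply genes from Tap1 to Erap1 have control 1 at the far right, whereas in the class II members tamoxifen 2 lies to the right with control 1 and tamoxifen 3 at the far left.

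The class II genes differed more between pools of one group than between the groups. H2-Aa, the alpha chain of I-A, had an intensity of 2757, 2048 and 1906 in controls and 1906, 2555 and 1601 after tamoxifen. H2-Ab1, its beta chain, had 1191, 913 and 794 in controls and 860, 1252 and 653 after tamoxifen. Cd74, the invariant chain, had 5671, 4988 and 4343 in controls and 4544, 5997 and 4002 after tamoxifen. In all 3 genes control 1 and tamoxifen 2 were the brightest pools and tamoxifen 3 the dimmest, and the groups overlapped. The log2 fold changes were -0.15 (SE 0.21) in H2-Aa, -0.10 (SE 0.26) in H2-Ab1 and -0.06 (SE 0.17) in Cd74, with adjusted p-values of 0.835, 0.923 and 0.933 from limma. The interval of H2-Ab1 ran from 0.602-fold to 1.45-fold of control.

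The genes that load class II had control 1 as their highest control pool as well. H2-DMa, a chain of the peptide exchange factor, had 1229, 970 and 726 in controls and 829, 1031 and 680 after tamoxifen (log2 fold change -0.19 with an SE of 0.23, adjusted p of 0.808 by limma). H2-Oa, a chain of the H2-DM inhibitor found mostly in B cells, had 204, 171 and 192 against 175, 252 and 148 (log2 fold change -0.01, SE 0.20). Ctss, the protease that trims the invariant chain, had 789, 679 and 617 against 667, 875 and 536 (log2 fold change -0.03, SE 0.19). In these genes too tamoxifen 2 was the highest tamoxifen pool and tamoxifen 3 the lowest of all. Ifi30, the thiol reductase of endosomes, had 2390, 1991 and 1975 against 1863, 2597 and 1655 (log2 fold change -0.08, SE 0.18). Tamoxifen 3 was the lowest of the 6 pools in 7 of 7 class II members, against 12.6% of all probesets.

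The probeset of H2-Ea, the alpha chain of I-E and the partner of H2-Eb1, was looked up after the values were seen because the strain bears on it. The gene is annotated as a pseudogene in the C57BL/6J reference, whereas Balb/c mice make I-E. Its intensity was 8012, 7478 and 6354 in controls and 6998, 8228 and 6174 after tamoxifen, with control 1 and tamoxifen 2 again brightest (log2 fold change -0.03 with an SE of 0.14, adjusted p of 0.95 by limma).

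Class I and class II members parted from each other in tamoxifen 2 and, by less and in the other direction, in tamoxifen 3. The median of the class I members, relative to the control mean of each gene, was 0.16, -0.01 and -0.19 in controls 1, 2 and 3 and -0.14, -0.08 and -0.21 after tamoxifen. The median of the class II members was 0.19, -0.06 and -0.19 in controls and -0.15, 0.30 and -0.37 after tamoxifen. Class I minus class II was therefore -0.03, 0.05 and 0.00 in controls and 0.01, -0.37 and 0.15 after tamoxifen. Tamoxifen 2 and 3 both lay outside the range of the controls. Each gene was centred on the mean of these same controls, which draws control values towards 0. Their range is therefore no measure of how far a tamoxifen pool may lie. The difference of the class medians of log2 fold change, class I minus class II, was -0.04, against an SD between pools of 0.19, and it was 0.08 without tamoxifen 2. No test was run on these medians.

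**Figure D3:**
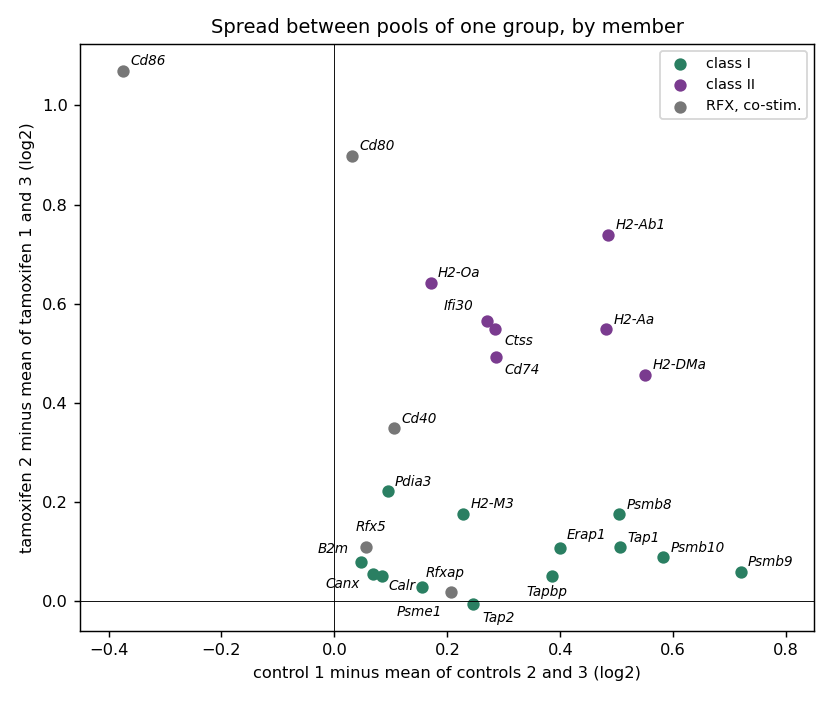
For each measured member the log2 intensity of control 1 minus the mean of controls 2 and 3 (horizontal axis) is plotted against that of tamoxifen 2 minus the mean of tamoxifen 1 and 3 (vertical axis), class I in green, class II in purple and the others in grey. Class II members lie between 0.46 and 0.74 on the vertical axis and class I members between -0.01 and 0.22, while both spread to the right.

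Tamoxifen 2 lay above the mean of tamoxifen 1 and 3 by a median of 0.55 on the log2 scale in class II members and 0.08 in class I members. It was the highest tamoxifen pool in 7 of 7 class II and 10 of 13 class I members, against 27.1% of all probesets, and the highest of the 6 pools in 5 class II members and 1 class I member, against 14.2% of all probesets. Control 1 was the highest control pool in all 20 of these genes, against 41.7% of all probesets. Its distance from the mean of the other controls had a median of 0.29 in class II and 0.25 in class I members, and reached 0.72 in Psmb9.

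Of the co-stimulatory genes, Cd80 and Cd86, both ligands of CD28 on T cells, had the highest positive log2 fold changes among the members, and both rested on tamoxifen 2. Cd80 had 269, 300 and 231 in controls and 326, 531 and 249 after tamoxifen (log2 fold change 0.40 with an SE of 0.28, adjusted p of 0.631 by limma). Cd86 had 216, 301 and 260 against 273, 524 and 228 (log2 fold change 0.32 with an SE of 0.32, adjusted p of 0.762 by limma). Without tamoxifen 2 the log2 fold change was 0.10 in Cd80 and -0.04 in Cd86. Cd40, the receptor by which T cells license presenting cells, had 179, 163 and 169 against 181, 214 and 156 (log2 fold change 0.10, SE 0.12). In all 3 genes tamoxifen 2 was the brightest pool and the groups overlapped.
RFX factors bind the X box of class I and class II promoters. Rfxank, an RFX factor outside the member list, had a log2 fold change of -0.05 (SE 0.07). Of Rfx5 and Rfxap, which are members, Rfx5 showed the smaller spread. Rfx5 had 266, 256 and 256 in controls and 253, 276 and 258 after tamoxifen, and its interval of -0.15 to 0.18 was about as narrow as that of B2m. Rfxap had 321, 260 and 299 against 259, 269 and 271, and its log2 fold change was -0.13 (SE 0.09, adjusted p of 0.645 by limma).

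The markers of presenting cells were set beside these values pool by pool. Of 10 B cell markers 9 were measured, and their summed intensity was 1619, 2025 and 3333 in controls and 1615, 4793 and 1203 after tamoxifen. Of 10 dendritic cell markers 7 were measured, with sums of 1968, 2502 and 2370 in controls and 2204, 4396 and 2055 after tamoxifen. Of 12 macrophage markers 11 were measured, with sums of 7465, 7307 and 6598 in controls and 7245, 8699 and 6398 after tamoxifen. The sums of all 3 lists were highest in tamoxifen 2, as was that of the class II members. Gene by gene, tamoxifen 2 was the highest of the 6 pools in 9 of 9 B cell and 7 of 7 dendritic cell markers. It was so in only 5 of 11 macrophage markers and 5 of 7 class II members, against 14.2% of all probesets. Among controls the order of the sums differed. The B cell sum was lowest in control 1, where the class II members were highest. The macrophage sum was highest there, but at 7465 against 7307 in control 2 the margin was small. Control 1 was the highest control in 7 of 11 macrophage and 0 of 9 B cell markers, against 41.7% of all probesets. In Cd68, Mrc1, Cd14 and Cd163 it was the lowest control. T and NK cell markers, of which 10 of 12 were measured, had sums of 2624 to 2956 in controls and 2646, 5805 and 2077 after tamoxifen. None of the markers was at 0, the dimmest being Ncr1, a receptor of NK cells, at 25.5 in its lowest pool. By limma 0 of these markers rose and 0 fell at an adjusted p under 0.05. At an unadjusted p under 0.05, 1 dendritic cell marker was higher (Cd209a) and 1 T and NK cell marker lower (Ncr1), against 6.55% and 5.87% of all probesets. Cd209a and Ncr1 were named after their values were seen. By the methods' t-test 0 were called. The part of these cells in the class II values was not tested. Without tamoxifen 2 the median log2 fold change was -0.27 in class II and -0.18 in class I members, with 0 called.

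**Figure D4:**
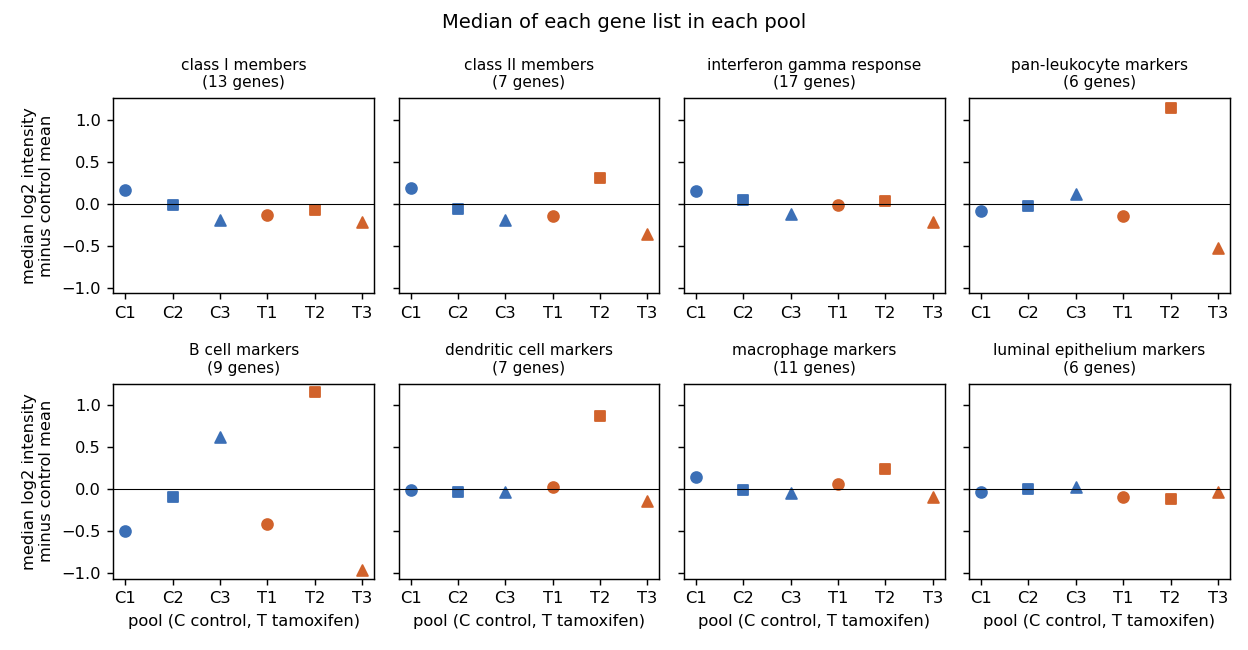
Each panel shows, for 1 gene list, the median over its genes of log2 intensity minus the control mean in each pool (C1 to C3 controls in blue, T1 to T3 tamoxifen in orange). The leukocyte, B cell, dendritic cell and class II panels peak at T2, the class I and interferon gamma panels have C1 highest, and the luminal panel stays between -0.12 and 0.03.

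Interferon gamma induces the immunoproteasome, TAP and both classes, and its response genes were followed as a separate list of which 17 of 22 were measured. Their median log2 fold change was -0.06, 0 rose and 0 fell at an adjusted p under 0.05 by limma and 0 were called by the methods' t-test. At an unadjusted p under 0.05 the numbers were 1 above control and 0 below, against 6.55% and 5.87% of all probesets. Control 1 was the highest control pool in 11 of the 17, against 41.7% of all probesets. Gbp7, a guanylate-binding protein gene, had 1778, 1211 and 755 in controls and 946, 932 and 877 after tamoxifen (log2 fold change -0.36, SE 0.29), and Gbp3, of the same family, had 1561, 1156 and 762 against 950, 909 and 776 (log2 fold change -0.35, SE 0.26). These pools ranked as in Tap1 and Psmb8 among controls. Irf1, a transcription factor that acts on class I and TAP promoters, went the other way, with 2207, 2227 and 2058 in controls and 2475, 2473 and 2416 after tamoxifen. Its groups did not overlap (all tamoxifen pools above all controls, as in 9.79% of all probesets). The log2 fold change of Irf1 was 0.18 with an SE of 0.07 (adjusted p of 0.357 by limma). The kinase gene Jak1 had a log2 fold change of 0.11 (SE 0.08).

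Of 47 other genes of presentation, among them cathepsins, constitutive proteasome subunits, further class I genes and NF-Y, 29 were measured. By limma 0 rose and 0 fell at an adjusted p under 0.05, and the median log2 fold change was 0.04. At an unadjusted p under 0.05 the numbers were 1 above control and 1 below, against 6.55% and 5.87% of all probesets. By the methods' t-test 0 were called. Nfyb, a subunit of the NF-Y factor that binds the Y box, had 325, 326 and 356 in controls and 401, 405 and 406 after tamoxifen. Every tamoxifen pool was above every control (9.79% of all probesets), and the log2 fold change was 0.27 with an SE of 0.07 (adjusted p of 0.218 by limma). The other NF-Y subunits, Nfya and Nfyc, had log2 fold changes of 0.09 (SE 0.08) and -0.23 (SE 0.29), and their groups overlapped. Sec61a1, the channel of the endoplasmic reticulum, had 4444, 4096 and 3833 against 3505, 3581 and 3655 (log2 fold change -0.20 with an SE of 0.08, adjusted p of 0.38 by limma). Every tamoxifen pool was below every control in Sec61a1 (11.2% of all probesets). Ide, a protease of the cytosol, had a log2 fold change of -0.14 (SE 0.06) and Icosl, a co-stimulatory ligand, 0.37 (SE 0.21).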

How the data were processed

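RNA of each pool was hybridised to 1 Affymetrix mouse array (an Exon ST array by the labels and a Gene ST array by the methods). The authors deposited probeset intensities on a linear scale, made with MAS5 and the mouse build mm9 as far as the submitters' processing notes go, which give neither a role. Background correction and normalization: not given in the sources used here. Of 22369 probesets, 18286 had 1 gene symbol, 1276 several and 2807 none, and the Entrez IDs of 18097 were found in RefSeq (GRCm38.p6), with 0 symbols updated. The probeset with the highest mean represents a gene, and each member had 1. Intensities were taken to log2 with no offset or filter and fitted with limma 3.58.1 in R 4.3.3 (lmFit, eBayes, group as the only term, 4 residual and 2.35 prior degrees of freedom). P-values are two-sided. The fit was tested on simulated data. Intervals are 95% intervals of limma. Plots were made with Python 3.11.15 and matplotlib 3.10.9.

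Every measured member is named. Pool values follow a fixed rule that names the class II chains, Cd74, B2m, Tap1 and members at an unadjusted p under 0.05. The rule also names Ciita, H2-K1, H2-D1 and Nlrc5, which were not measured. Pool values are given as well for further members chosen after their values were seen. Of the other presentation genes and the interferon gamma list, up to 4 genes with the smallest p are named. H2-Ea, Rfxank, Nfya and Nfyc are named besides these. The members, lists and motifs were chosen with earlier results of these data known. Nothing states that pools of one group were collected apart, so p-values measure the spread between these pools.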

Additional observations from a re-analysis of the deposited data

How the results depend on the processing

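With 3 pools a group, no alternative called a member at an adjusted p under 0.05. These were an offset of 32, a filter at the 25th percentile or at the median of mean intensity, median centring, quantile normalization and array weights. A robust variance trend, the methods' t-test, the replicate block and each array left out were also fitted. The mean over a gene's probesets was no separate fit, since each member had 1 probeset, and its values are those of the main fit. Control 1 and tamoxifen 2 both left out was chosen after seeing the data. The adjusted p of Tap2 ranged from 0.087 to 0.538, and its unadjusted p stayed under 0.05 in all of them.

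With 1 array left out, 1 to 5 members were lower and 0 to 1 higher at an unadjusted p under 0.05. The 5 were Tap1, Tap2, Psmb8, Psmb9 and Erap1 without control 3, and the 1 higher was Cd80 without tamoxifen 3. Without control 2, Tap2 and Rfxap were lower, and without tamoxifen 2, Tap2 and Pdia3. The class I median was -0.28 to -0.047 (lowest without control 3, highest without control 1), the class II median -0.27 to 0.07 (lowest without tamoxifen 2, highest without tamoxifen 3, and 0.04 without control 1), and their difference -0.17 to 0.08. With both arrays left out the class I median was -0.07, the class II median -0.17 and the difference 0.10. With array weights the class II median was -0.20 and the difference 0.08.

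Labels give both groups the replicate numbers 1 to 3, which state no pairing. Same-numbered pools deviated together with r of -0.04 to 0.05. With the replicate block 3 members were lower at an unadjusted p under 0.05 (Tap2, Psmb8 and Psmb9), against 5.25% of all probesets in the same fit, 0 passed the adjusted threshold, and calls over all probesets went from 87 to 15.

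Signs turned in 33 of 425 member values, over 13 genes. The 425 include settings that leave the log2 fold change of the main fit as it was, so that no sign could turn. Such settings were the methods' t-test, the robust variance trend, both filters, the replicate block and the mean over a gene's probesets. With array weights B2m was 0.0023, Cd86 -0.11 and Cd40 -0.024. With median centring B2m was 0.022, Calr 0.0051 and H2-Oa 0.013. With both arrays left out Psmb10 was 0.045, Rfx5 -0.0032 and Cd86 -0.17. With 1 array left out log2 fold changes ranged from -0.13 to 0.058 in H2-M3, -0.027 to 0.024 in B2m, -0.29 to 0.075 in Psmb10, -0.038 to 0.0099 in Calr, -0.34 to 0.0054 in H2-Aa, -0.35 to 0.12 in H2-Ab1, -0.22 to 0.070 in Cd74, -0.22 to 0.16 in H2-Oa, -0.21 to 0.14 in Ctss, -0.27 to 0.060 in Ifi30, -0.022 to 0.040 in Rfx5, -0.041 to 0.56 in Cd86 and -0.020 to 0.21 in Cd40. The causes were not tested.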
